A study of Homo sapiens with 6 samples.

Results

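The BTG/TOB antiproliferative genes and the nucleases and scaffold of the CCR4-NOT complex were followed in AGS cells, an established human gastric adenocarcinoma line, after knockdown of the pseudogene transcript ANXA2P1. The 10 genes are TOB1, TOB2, BTG1, BTG2 and BTG3 of the BTG/TOB family, and CNOT1, CNOT6, CNOT6L, CNOT7 and CNOT8 of the complex. They were found by gene name, and all 10 were among the 11846 genes of the deposited expression table. The set was chosen by gene family with results of this same contrast in view, so the values of its members are given as a description, and counts of members past a threshold are not support for them.

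Poly(A) RNA was sequenced from 3 ANXA2P1 knockdown libraries and 3 control libraries, which the series record calls biological replicates. All cells were grown in medium with 10% fetal bovine serum. The labels describe the controls as transfected with scr-shRNA, a scrambled hairpin, and the knockdown samples only as treated with ANXA2P1 knockdown, while the study's methods describe RNA-seq of cells carrying CRISPRi-Scramble or CRISPRi-ANXA2P1, a dead Cas9 fused to the KRAB repressor. How the knockdown was made in these libraries is therefore not settled, and the sources used here do not say whether both groups were prepared together. A batch that follows the groups and the knockdown itself cannot be told apart. The level of ANXA2P1 was not analysed here, so the group labels were not checked on the targeted transcript.

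Values are FPKM, fragments scaled to the length of the gene and to the size of the library. Whole fragment counts recovered from them came to 19010940 to 21467162 per knockdown library and 21103051 to 22911995 per control library. The epithelial genes EPCAM, KRT8, KRT18, KRT19 and CLDN4 had at least 67.9 FPKM in every library, while CDH1, also an epithelial marker, lay between 1.89 and 2.46 FPKM. Of the 6 fibroblast and endothelial markers only COL1A1 was in the table, at 1.38 to 1.62 FPKM, and of the 5 blood cell markers only LYZ, at 175 to 374 FPKM with the highest and the lowest library in different groups. Knockdown library 1 stood apart. The interquartile range of its log2 deviations from the control mean over 10813 genes was 0.35, against 0.18 and 0.21 in knockdown libraries 2 and 3 and 0.07 to 0.11 in the control libraries. The control libraries are part of that mean, which narrows their range, and the knockdown libraries also carry any difference between the groups. Values without knockdown library 1 are given beside the members whose log2 fold change it turned or moved by more than 1.5 times, and for CNOT6 and CNOT7. In bulk RNA, fewer cells of a type and less RNA per cell cannot be told apart.

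Removal of the poly(A) tail is the step that commits most cytoplasmic mRNAs to decay, and CCR4-NOT is the main enzyme complex that carries it out. CNOT1 is the scaffold. CNOT7 or CNOT8, which are DEDD-type nucleases, and CNOT6 or CNOT6L, which are nucleases of the other class (EEP), bind to it, and each complex holds a single member of either pair. BTG and TOB proteins share a conserved amino-terminal domain that binds CNOT7 or CNOT8, and TOB proteins also carry motifs for the cytoplasmic poly(A)-binding protein, so that they bring the nucleases to mRNA. High levels of these proteins slow the entry of many cell types into S phase, and BTG2 is a classical target of p53 and of growth factor signals.

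TOB2 and TOB1 are the family's long forms, and they behaved differently here, so the start of their coding sequences is shown to let the paralogs be compared base by base. Both runs are the first 120 coding bases from the GENCODE annotation, 5′ to 3′, on the coding strand, with the 33 bases that differ in capitals.
TOB2: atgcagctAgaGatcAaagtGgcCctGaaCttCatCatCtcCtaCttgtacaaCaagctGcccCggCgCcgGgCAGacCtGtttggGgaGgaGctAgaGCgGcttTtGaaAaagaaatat
TOB1: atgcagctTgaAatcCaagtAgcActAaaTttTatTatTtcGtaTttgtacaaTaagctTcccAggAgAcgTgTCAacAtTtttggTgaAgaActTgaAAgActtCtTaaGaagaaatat
These runs aligned with 0 gaps. Over the 975 aligned bases of the coding sequences, identity was 69.6% and the longest identical run was 14 bases. No stretch of 50 bases of any member's transcript was shared with another member.

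Of the 10 genes, 2 were higher in every knockdown library than in any control library, 2 were lower in every knockdown library, and in 6 the groups overlapped. Among all 10813 genes with a mean of at least 0.5 FPKM, 9.86% lay wholly above the controls in this sense and 9.13% wholly below. The genes that lay above were the adaptors TOB2 and BTG2, and those that lay below were the nucleases CNOT6 and CNOT7. The groups overlapped for the other adaptors, TOB1, BTG1 and BTG3, for the other nucleases, CNOT6L and CNOT8, and for CNOT1. At a limma adjusted p under 0.05, 1 member was called higher and 0 lower, where 0.0185% of all tested genes were called higher and 0.111% lower. The member called was TOB2, and leaving out any 1 library other than knockdown library 1 left 0 members past the threshold, as did scaling all libraries to a common median, a fit without trend and robust settings, and the replicate block. Without knockdown library 1, the count was 2, TOB2 and BTG2. This contrast was in view when the genes were chosen, so nothing is read from these counts.

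**Figure D1:**
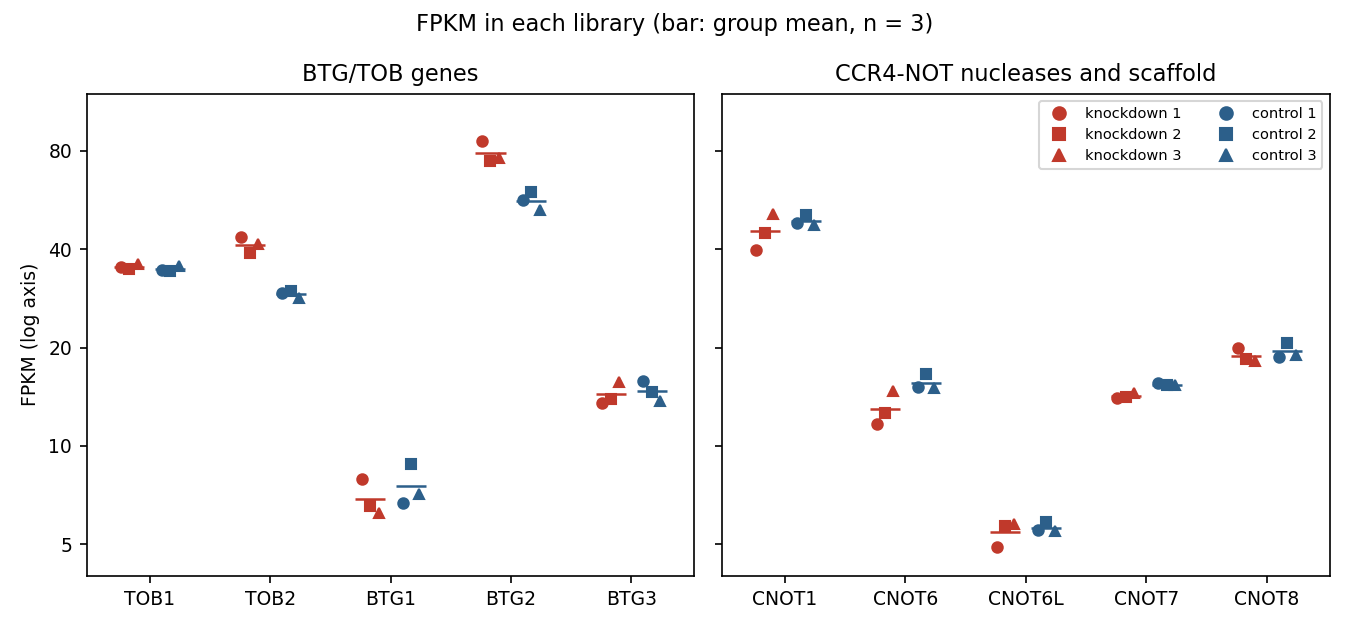
FPKM of the 10 genes in each library on a log axis, knockdown (red) left of control (blue); each symbol is a library and each bar the mean of 3 libraries. BTG2 (78.8 against 56.4 FPKM on average) and TOB2 (41.3 against 29.2 FPKM) are the genes whose knockdown libraries all lie above their controls.

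TOB2 (chr22:41433492-41447023, minus strand, GRCh38) encodes an adaptor that binds CNOT7 or CNOT8 and the poly(A)-binding protein. It had 43.5, 38.9 and 41.5 FPKM in knockdown libraries 1, 2 and 3, against 29.4, 29.7 and 28.4 FPKM in the control libraries. The groups did not overlap, and the lowest knockdown library stood 9.17 FPKM above the highest control. Means were 41.3 ± 2.31 FPKM in knockdown cells and 29.2 ± 0.713 FPKM in control cells (SD, n = 3 each), a log2 fold change of 0.50 (SE 0.06). The gene was covered by 3819, 3848 and 4044 fragments in the knockdown libraries and by 3016, 2896 and 2994 in the control libraries. Counting alone gave a coefficient of variation of 1.71%, against 5.58% between knockdown libraries and 2.44% between control libraries. Of the 10813 genes, 13 including TOB2 had a log2 fold change at least as high. This rank is a description, because the contrast was in view when the members were chosen.

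TOB1 (chr17:50862223-50867978, minus strand), the paralog with the same binding partners, had 35.4, 34.8 and 36.0 FPKM in knockdown libraries and 34.5, 34.2 and 35.6 FPKM in control libraries. The libraries of both groups overlapped within a range of 1.75 FPKM. Means were 35.4 ± 0.581 FPKM in knockdown cells and 34.8 ± 0.703 FPKM in control cells (SD, n = 3 each), a log2 fold change of 0.03 (SE 0.06). In FPKM as deposited, TOB2 lay above TOB1 in every knockdown library and below it in every control library. Which of the pair has the higher mean in knockdown cells depends on the length used. Recovered fragments were scaled to their own total and to either length, so the scale differs from that of the deposited values. Per longest annotated transcript, TOB2 would have 41.7 ± 2.37 FPKM and TOB1 42.5 ± 0.687 FPKM in knockdown cells, apart by less than the SD of TOB2. In control cells they would have 29.5 ± 0.74 and 41.7 ± 0.824 FPKM (SD, n = 3 each). Over all exons merged, TOB2 would have 41.7 ± 2.37 FPKM and TOB1 37.6 ± 0.608 FPKM in knockdown cells. Within a library, the log2 ratio of TOB2 to TOB1 was 0.30, 0.16 and 0.20 in knockdown libraries, against −0.23, −0.20 and −0.33 in control libraries, a difference of 0.47 between the groups, in which the length cancels.

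BTG2 (chr1:203305491-203309602, plus strand) is a short adaptor of the family and an immediate-early gene. It had 85.6, 74.6 and 76.3 FPKM in knockdown libraries, against 56.6, 60.0 and 52.7 FPKM in control libraries. The groups did not overlap, and knockdown library 1 was the highest of the 6. Means were 78.8 ± 5.91 FPKM in knockdown cells and 56.4 ± 3.64 FPKM in control cells (SD, n = 3 each), a log2 fold change of 0.48 (SE 0.08). Its 4684 to 4770 fragments per knockdown library stood against 3531 to 3709 per control library, and 18 tested genes including BTG2 had a log2 fold change at least as high. BTG2 and TOB2 were the family members that moved together, so the bases before the BTG2 start are shown, from RefSeq (GRCh38.p14, chr1:203305269-203305490, plus strand, 222 bases). Capitals mark 3 GC boxes (GGGCGG, on either strand) and 1 CCAAT box, which do not overlap each other.
BTG2 upstream: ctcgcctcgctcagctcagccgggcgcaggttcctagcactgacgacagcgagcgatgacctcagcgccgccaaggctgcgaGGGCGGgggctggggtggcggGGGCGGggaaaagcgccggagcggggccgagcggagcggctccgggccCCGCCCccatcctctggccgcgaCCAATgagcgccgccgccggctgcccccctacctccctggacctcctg
Over 35116 RefSeq windows of the 250 bases before a gene start, searched on both strands, 42.64% held a GC box and 32.01% a CCAAT box. A GC box was also in a window of TOB1, TOB2, BTG1, BTG3, CNOT6, CNOT6L and CNOT8, and a CCAAT box in one of TOB1, BTG1 and CNOT6. The shares are per window, while TOB1 had 2 windows and CNOT6L and CNOT8 had 3 each, any of which could match. The TATA letters TATAAA, found in 10.72% of windows, were in that of BTG1, and CACGTG, found in 6.34%, was in none of the members' windows. Windows of CNOT1 and CNOT7 were not used here. A match is a description of the letters only.

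BTG1 (chr12:92140278-92145897, minus strand), the closest paralog of BTG2, had 7.90, 6.53 and 6.21 FPKM in knockdown libraries and 6.66, 8.78 and 7.11 FPKM in control libraries. The groups overlapped, with the highest value in control library 2 and the lowest in knockdown library 3. Means were 6.88 ± 0.901 FPKM in knockdown cells and 7.52 ± 1.12 FPKM in control cells (SD, n = 3 each), a log2 fold change of −0.12 (SE 0.13). It was −0.23 without knockdown library 1, −0.20 without control library 1, −0.05 without knockdown library 3 and −0.01 without control library 2. The coding sequences of BTG2 and BTG1 were 69.8% identical over 473 aligned bases, with no identical run longer than 18 bases. The log2 ratio of BTG2 to BTG1 was 3.44, 3.51 and 3.62 in knockdown libraries, against 3.09, 2.77 and 2.89 in control libraries, without overlap.

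BTG3 (chr21:17593653-17612947, minus strand), a further member of the family, had 13.5, 13.9 and 15.7 FPKM in knockdown libraries and 15.8, 14.6 and 13.7 FPKM in control libraries. The groups overlapped over nearly their whole range, and the log2 fold change was −0.04 (SE 0.08). It turned to 0.01 without knockdown library 1 and to 0.02 without control library 1. BTG4, the remaining family member, was not analysed here.

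Summed over the 5 family members in FPKM as deposited, adaptor mRNA came to 177 ± 8.58 FPKM in knockdown cells and 143 ± 4.97 FPKM in control cells (SD, n = 3 each). The sum was 185.8, 168.8 and 175.7 FPKM in knockdown libraries, against 142.9, 147.3 and 137.4 FPKM in control libraries. TOB2 and BTG2 made up 67.9% ± 1.34 of that sum in knockdown cells and 60.0% ± 0.957 in control cells. TOB1, BTG1 and BTG3 together came to 56.6 ± 1.3 FPKM in knockdown cells and 57 ± 0.638 FPKM in control cells (SD, n = 3 each), less than 1 SD apart, so the difference in the sum lay in TOB2 and BTG2.

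**Figure D2:**
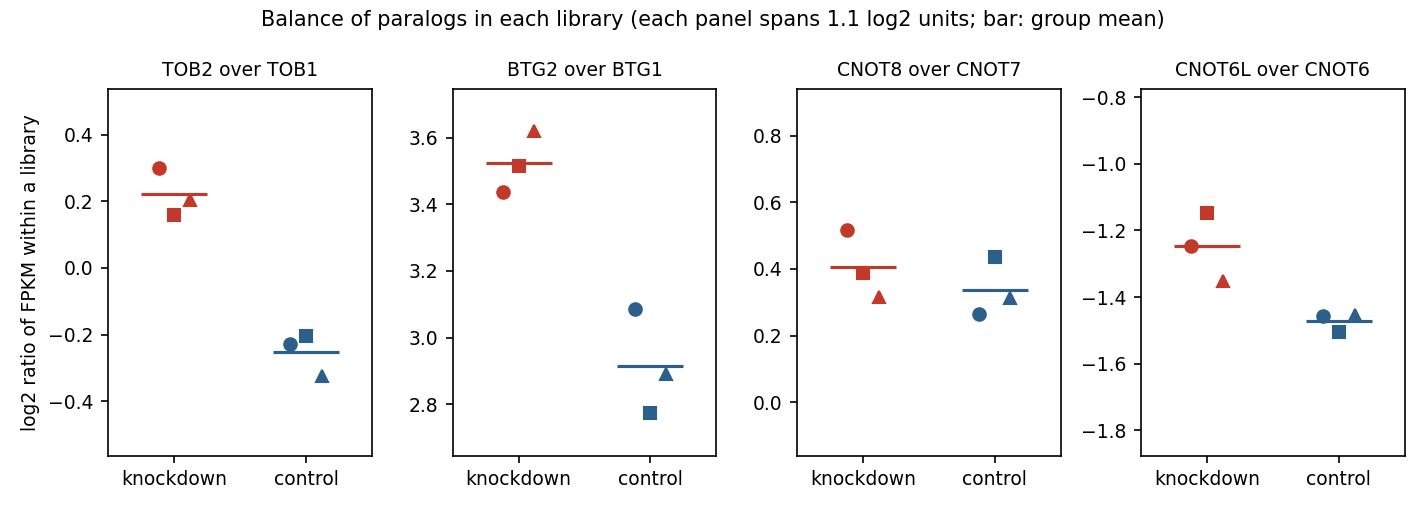
Log2 ratio of FPKM between paralogs within each library, knockdown left of control; symbols are libraries, bars are means of 3, and every panel spans the same 1.1 log2 units. TOB2 over TOB1 is higher in knockdown (0.16 to 0.30 against −0.33 to −0.20, with a sign that depends on the gene lengths used), while CNOT8 over CNOT7 overlaps between them (0.32 to 0.52 against 0.26 to 0.44).

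On the side of the complex, all 5 members had a negative log2 fold change, from −0.27 to −0.04, with a median of −0.12, beside a median of 0.01 over all tested genes. Without knockdown library 1, CNOT6L turned to 0.03 and CNOT1 came to −0.03, so 4 of the 5 were then negative. The sizes were small. The median SE over all genes was 0.09, and the 5 genes had SEs of 0.06 to 0.09.

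CNOT6 (chr5:180494412-180578405, plus strand), an EEP-type nuclease, had 11.6, 12.6 and 14.7 FPKM in knockdown libraries, against 15.1, 16.6 and 15.0 FPKM in control libraries. The groups did not overlap, but knockdown library 3 came within 0.29 FPKM of the lowest control. Means were 13.0 ± 1.57 FPKM in knockdown cells and 15.6 ± 0.886 FPKM in control cells (SD, n = 3 each), a log2 fold change of −0.27 (SE 0.09). Without knockdown library 1, the lowest of the 6, the log2 fold change was −0.19.

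CNOT6L (chr4:77713387-77819615, minus strand), the paralog of CNOT6, had 4.90, 5.69 and 5.76 FPKM in knockdown libraries and 5.51, 5.84 and 5.47 FPKM in control libraries. Knockdown library 1 was the lowest and the groups overlapped, with a log2 fold change of −0.04 (SE 0.08), which turned to 0.03 without that library. The log2 ratio of CNOT6L to CNOT6 was −1.25, −1.15 and −1.35 in knockdown libraries, against −1.46, −1.50 and −1.45 in control libraries, so CNOT6L was the lesser of the pair in every library. Their summed level was 18.4 ± 1.97 FPKM in knockdown cells and 21.2 ± 1.09 FPKM in control cells (SD, n = 3 each). The coding sequences of the pair were 73.9% identical.

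CNOT7 (chr8:17224964-17246878, minus strand), the DEDD-type nuclease that BTG and TOB proteins bind, had 14.0, 14.1 and 14.6 FPKM in knockdown libraries, against 15.6, 15.3 and 15.3 FPKM in control libraries. The groups did not overlap, and the libraries of each lay close together. Counting alone gave a coefficient of variation of 1.65%, above the 1.02% between control libraries and below the 2.19% between knockdown libraries. Means were 14.2 ± 0.311 FPKM in knockdown cells and 15.4 ± 0.157 FPKM in control cells (SD, n = 3 each), a log2 fold change of −0.12 (SE 0.06). Without knockdown library 1 it was −0.10. The gene was covered by 3088 to 3575 fragments in knockdown libraries and 3756 to 4077 in control libraries.

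CNOT8 (chr5:154857553-154876793, plus strand), the alternative to CNOT7 in the complex, had 19.9, 18.4 and 18.1 FPKM in knockdown libraries and 18.7, 20.7 and 19.0 FPKM in control libraries. The groups overlapped, and the log2 fold change was −0.05 (SE 0.07). It was −0.09 without knockdown library 1 and −0.00 without control library 2. Summed with CNOT7, the level was 33.0 ± 0.764 FPKM in knockdown cells and 34.9 ± 0.978 FPKM in control cells (SD, n = 3 each). The log2 ratio of CNOT8 to CNOT7 was 0.52, 0.39 and 0.32 in knockdown libraries and 0.26, 0.44 and 0.31 in control libraries, and the groups overlapped.

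CNOT1 (chr16:58519951-58629886, minus strand), the scaffold on which the complex is built, had 39.8, 45.0 and 51.3 FPKM in knockdown libraries and 48.2, 51.0 and 47.5 FPKM in control libraries. Knockdown library 1 was the lowest of the 6 and knockdown library 3 the highest. The means were 45.4 ± 5.78 FPKM in knockdown cells and 48.9 ± 1.87 FPKM in control cells (SD, n = 3 each). This gave a log2 fold change of −0.12 (SE 0.09), and one of −0.03 without knockdown library 1.

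**Figure D3:**
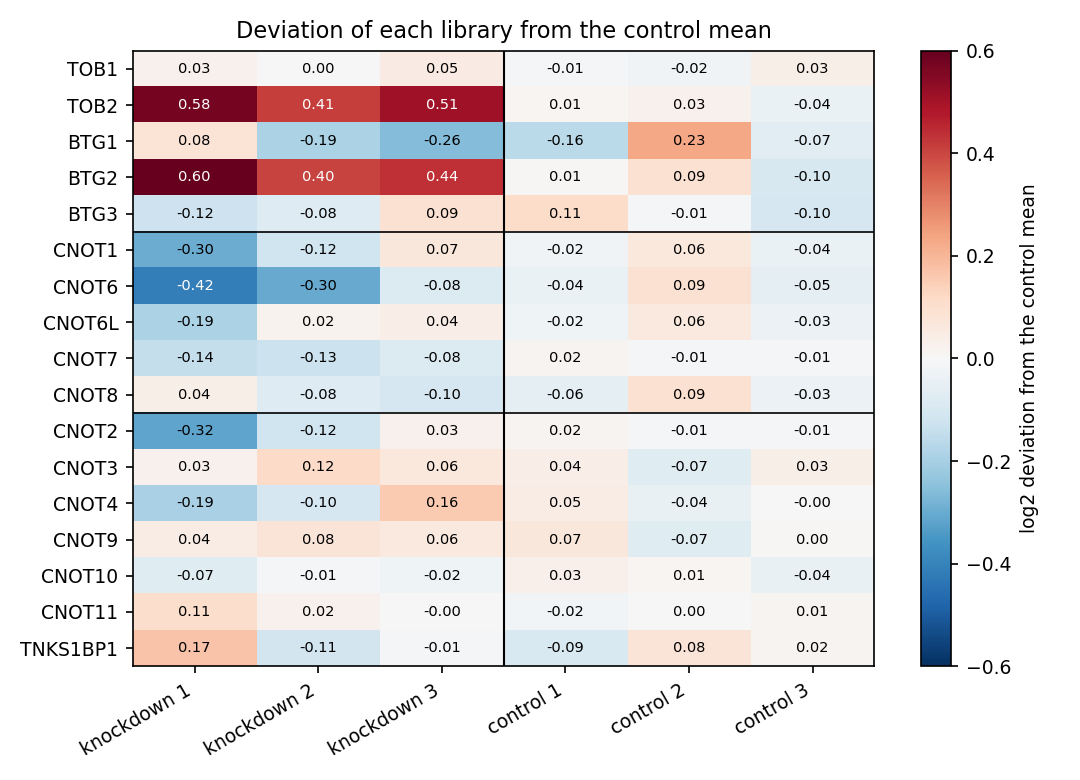
Log2 deviation of each library from the control mean for the 10 genes and the 7 other CCR4-NOT subunits, knockdown libraries left of the line and control libraries right of it; red is higher and blue lower. TOB2 and BTG2 are at 0.40 to 0.60 in all 3 knockdown libraries, while CNOT6 runs from −0.42 in knockdown library 1 to −0.08 in knockdown library 3.

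The remaining parts of the complex were set beside these genes. The 7 other subunits were CNOT2 and CNOT3, which form its NOT module, the ubiquitin ligase CNOT4, CNOT9, CNOT10, CNOT11 and the associated protein TNKS1BP1. Of these 7, 0 rose and 0 fell at a limma adjusted p under 0.05, where 0.0185% of all tested genes rose and 0.111% fell. An unadjusted p under 0.05 was found for 0 of the 7, and for 10.6% of all tested genes. The log2 fold changes of the 7 ran from −0.14 for CNOT2 to 0.07 for CNOT3, with a median of 0.02. CNOT2 had 5.70, 6.54 and 7.26 FPKM in knockdown libraries and 7.21, 7.10 and 7.07 FPKM in control libraries, with knockdown library 1 again the lowest. Over all 12 subunits, the median deviation from the control mean was −0.11, −0.09 and 0.01 in knockdown libraries 1, 2 and 3, against 0.00, 0.01 and −0.01 in control libraries. Over the 5 members of the complex alone it was −0.19, −0.12 and −0.08 in knockdown libraries, against −0.02, 0.06 and −0.03 in control libraries. The control libraries are part of the mean they are set against, which holds their deviations close to it. The largest of these median deviations were those of knockdown library 1, the library that stood apart over all genes, and its part in the result was not tested beyond the values without it.

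**Figure D4:**
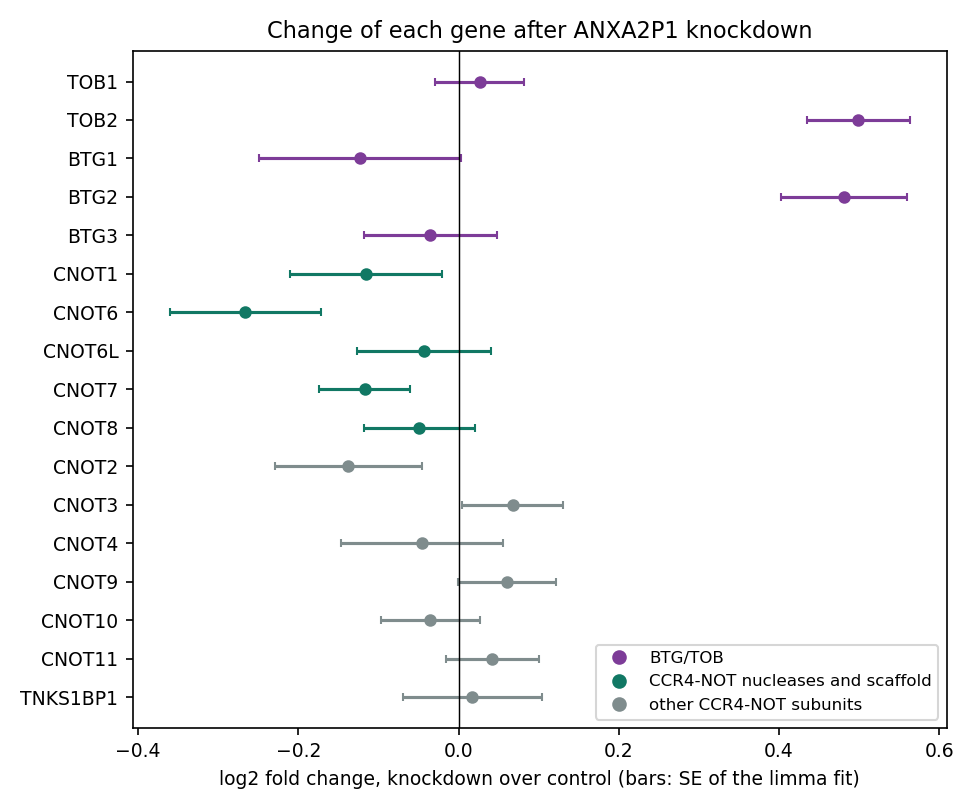
Log2 fold change, knockdown over control, with its SE from the limma fit, for the BTG/TOB genes (purple), the nucleases and scaffold of CCR4-NOT (green) and the other subunits (grey). TOB2 (0.50) and BTG2 (0.48) stand to the right, and the other 15 genes lie between −0.27 and 0.07.

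Levels per length were ordered as follows. In knockdown cells BTG2 was the most abundant of the 10, followed by CNOT1 and TOB2, whose ranges overlapped, then TOB1 and CNOT8, then BTG3, CNOT7 and CNOT6, each overlapping its neighbour, then BTG1 and CNOT6L. In control cells the order was BTG2, CNOT1, TOB1, TOB2 and CNOT8, then CNOT6, CNOT7 and BTG3 with overlapping ranges, then BTG1 and CNOT6L. TOB2 and TOB1 stood in a different order in the groups on this scale, and the order at both ends was the same. BTG2 stood above 96.4% of all genes of the table in knockdown cells and above 94.6% in control cells. The lengths implied by the values fitted all exons of a gene merged, within 5% after a common factor, for 79.71% of 11591 genes and the longest annotated transcript for 12.72%, and the length the authors used is not known. Merged exons come for CNOT7 to 10943 bases and the longest annotated transcript to 6913 bases. With recovered fragments scaled to their own total and the longest transcript, CNOT7 would have 23.9 ± 0.497 FPKM in knockdown cells and 25.9 ± 0.236 FPKM in control cells (SD, n = 3 each). On that scale merged exons give CNOT7 15.1 ± 0.314 and 16.3 ± 0.149 FPKM, beside 14.2 and 15.4 FPKM as deposited. Per longest transcript CNOT7 would stand above CNOT6 (14.4 ± 1.72 and 17.2 ± 1.00 FPKM) in both groups. TOB1 would then have the higher mean of the TOB pair in both. The ratio between groups for a single gene does not depend on this choice of length, while differences in FPKM, sums over genes and shares of a sum do.

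Beyond the complex, the rest of the mRNA decay machinery was read from lists of known components. Across 76 tested genes in 6 lists, 0 rose and 0 fell at a limma adjusted p under 0.05, where 0.0185% of all tested genes rose and 0.111% fell. Calls were so rare over all genes that 0 in this or a shorter list does not show that its genes were unchanged. An unadjusted p under 0.05 was found for 7 of the 76, and for 10.6% of all tested genes. With voom on the recovered fragments, 0 of the 76 passed the adjusted p either. Of the 76, 40 had a positive and 36 a negative log2 fold change, with a median of 0.00, beside 0.01 over all tested genes. In 7 of the 76 the knockdown libraries lay wholly above the controls, and in 7 wholly below, beside 9.86% and 9.13% of all tested genes.

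Among other deadenylases, 0 of 8 passed the test, and the median log2 fold change was −0.02. PAN2 and PAN3, the nuclease and partner that trim long tails before CCR4-NOT acts, had log2 fold changes of 0.01 and 0.05. TOE1, a nuclease that trims small nuclear RNAs, had one of −0.08. The nuclease PARN averaged 8.29 ± 0.516 FPKM in knockdown cells and 8.98 ± 0.251 FPKM in control cells (SD, n = 3 each), or −0.12 on the log2 scale (limma adjusted p = 0.606). PABPC1, the main cytoplasmic poly(A)-binding protein and the partner of TOB proteins, had 100.1, 100.3 and 95.3 FPKM in knockdown libraries, against 102.5, 109.5 and 106.4 FPKM in control libraries. Its groups did not overlap, and the log2 fold change of −0.11 did not pass the test (limma adjusted p = 0.58). PABPC4, a close relative, differed by 0.11 on the log2 scale (limma adjusted p = 0.646), and of the 8 tested genes of that list 0 passed.

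Of 17 tested proteins that bring CCR4-NOT to mRNA, such as the ZFP36, PUM and TNRC6 proteins, 0 passed the test, with a median of 0.00 to 2 decimals. Their largest test statistics belonged to SAMD4B and CPEB4. SAMD4B, a Smaug-type RNA-binding protein, averaged 24.0 ± 0.178 FPKM in knockdown cells and 21.2 ± 0.746 FPKM in control cells (SD, n = 3 each; log2 fold change 0.17, limma adjusted p = 0.323). CPEB4, which binds cytoplasmic polyadenylation elements, averaged 4.15 ± 0.494 FPKM in knockdown cells and 5.04 ± 0.167 FPKM in control cells (SD, n = 3 each; log2 fold change −0.28, limma adjusted p = 0.353).

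The steps after deadenylation gave the same counts. Of 19 genes of decapping and decay from the capped end, 0 passed, with a median of 0.06. EDC3, an enhancer of decapping, had 14.1, 13.4 and 13.0 FPKM in knockdown libraries, against 11.4, 11.6 and 11.1 FPKM in control libraries (log2 fold change 0.25, limma adjusted p = 0.201, the lowest among the 76). LSM14A, a P-body protein, had 43.3, 52.4 and 56.8 FPKM in knockdown libraries, against 64.2, 63.2 and 64.8 FPKM in control libraries (log2 fold change −0.34, limma adjusted p = 0.261). DDX6, the helicase that links CCR4-NOT to decapping, had 18.0, 21.1 and 22.4 FPKM in knockdown libraries, against 24.7, 23.7 and 22.5 FPKM in control libraries (log2 fold change −0.21, limma adjusted p = 0.463). LSM14A and DDX6, like CNOT6, were lowest in knockdown library 1. Of 17 genes of the exosome and its SKI helicase complex, 0 passed, with a median of −0.03, and the largest test statistics were those of the ring subunit EXOSC8, at −0.23 on the log2 scale (limma adjusted p = 0.379), and the nuclease DIS3L, at −0.14 (limma adjusted p = 0.502).

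**Figure D5:**
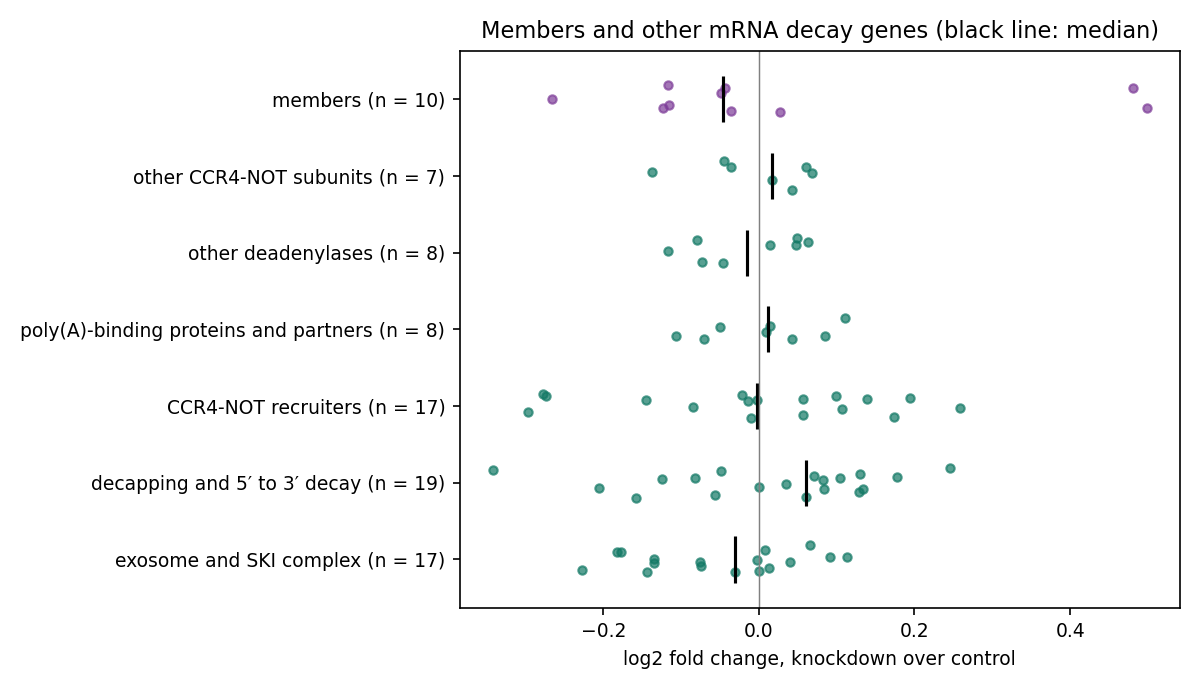
Log2 fold change, knockdown over control, of the 10 genes (purple, chosen with this contrast in view) and of 76 other mRNA decay genes in 6 lists (green); each point is a gene and each black line the median of its list. The medians lie between −0.05 and 0.06, and TOB2 and BTG2 are farther right than every gene of the 6 lists.

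Genes tied to the family in other ways were counted in the same fit. Of 7 reported binding partners of BTG or TOB proteins, 0 passed the test, with a median of 0.01. The arginine methyltransferase PRMT1, which BTG1 and BTG2 bind, had a log2 fold change of 0.01, and ERBB2, the receptor from which TOB takes its name, one of 0.04. SMAD5, which carries BMP signals, had one of 0.09. CCND1, which encodes cyclin D1 and is repressed by TOB1 in other cells, fell to 55.9 ± 1.23 FPKM in knockdown cells, against 84.2 ± 1.08 FPKM in control cells (SD, n = 3 each; log2 fold change −0.59, limma adjusted p = 0.028). CCND1 was in none of the lists and was named with earlier results of these data known, so its p is given as a description. CCND1 was below every control in all 3 knockdown libraries. Over 15 alternative settings its log2 fold change was −0.60 to −0.57 and its limma adjusted p 0.0022 to 0.319, past the threshold in 8. The settings that lost the call included a common median and a fit without trend and robust settings. They also included each fit with knockdown library 2 or a control library left out. Whether TOB2 or BTG2 had a part in the fall of CCND1 was not tested.

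BTG2 is a p53 target, and of 15 such genes 0 rose and 0 fell at the adjusted p, where 0.0185% of all tested genes rose and 0.111% fell. Of the 15, 5 had an unadjusted p under 0.05 beside 10.6% of all tested genes, and the median log2 fold change was −0.05. Knockdown libraries lay wholly above the controls in 1 of the 15 and wholly below in 4, beside 9.86% and 9.13% of all tested genes. CDKN1A, the p21 inhibitor of cyclin-dependent kinases, had 108.0, 104.5 and 112.0 FPKM in knockdown libraries, against 100.1, 86.9 and 91.3 FPKM in control libraries (log2 fold change 0.22, limma adjusted p = 0.318). TIGAR, a p53-induced fructose bisphosphatase, lay the other way, with 1.48 ± 0.0971 FPKM in knockdown cells and 2.04 ± 0.189 FPKM in control cells (SD, n = 3 each; log2 fold change −0.44, limma adjusted p = 0.173). BTG2 is also an immediate-early gene, and of 15 others of that class 0 passed, with a median log2 fold change of −0.06. Of these 15, 6 had a positive and 9 a negative value. An unadjusted p under 0.05 was found for 5 of them, beside 10.6% of all tested genes. Again 1 lay wholly above the controls and 4 wholly below, beside 9.86% and 9.13% of all tested genes. EGR1, a zinc finger factor of the class, had 9.22, 5.58 and 6.98 FPKM in knockdown libraries, against 10.5, 15.8 and 11.2 FPKM in control libraries (log2 fold change −0.78, limma adjusted p = 0.211). FOS, a subunit of AP-1, lay the same way as EGR1, at −0.34 on the log2 scale (limma adjusted p = 0.211), and thus opposite in sign to BTG2.

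The patterns most like those of TOB2 and BTG2 were ranked by Pearson correlation of log2 FPKM over the 6 libraries among 10107 genes, which share libraries and the group difference, so the values are descriptive. Closest to TOB2 were ZBTB7B (r = 0.999), ZDHHC8 (r = 0.996), COX15 (r = 0.995), LDB1 (r = 0.991) and PAFAH1B2 (r = 0.991). Closest to BTG2 were DNAJC5 (r = 0.992), CSKMT (r = 0.990), ABHD15 (r = 0.990), EDC3 (r = 0.989) and YIPF5 (r = 0.989). TOB2 and BTG2 followed each other with r = 0.984, which put BTG2 in place 11 for TOB2 and TOB2 in place 10 for BTG2. At the other end of the ranking, CNOT7 had r = −0.93 with TOB2 and −0.94 with BTG2. The changes of the genes that tracked TOB2 were smaller than its own, at log2 fold changes of 0.11 to 0.22.

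Reads of some members may be shared with other transcripts. Stretches of 50 bases also found elsewhere made up 7.67% of the TOB2 transcript (shared with AC007228.1), 7.77% of that of BTG1 (with LINC01619), 7.23% of that of CNOT6L (with the pseudogene CNOT6LP1) and 2.53% of that of CNOT7 (with CNOT7P1, CNOT7P2 and AC104806.1). The genes of BTG1, BTG3 and TOB1 overlap annotated noncoding transcripts, CNOT1 overlaps SETD6, CNOT7 overlaps VPS37A and CNOT8 overlaps FAXDC2. The sources used here do not say whether counting used strand, so levels of these genes are uncertain by what their neighbours add. BTG2 had no overlapping gene and 0% of shared stretches.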

How the data were processed

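The authors deposited a table of FPKM values for 11846 genes in 6 libraries, and the submitters' processing notes name TopHat, Bowtie2 and hg38. For their versions, the annotation, the counting tool and its strand setting: not given in the sources used here. All sample columns were mapped. Values were analysed as log2(FPKM + 0.1) for 10813 genes with a mean of at least 0.5 FPKM, in limma 3.58.1 (lmFit, eBayes with trend and robust) with no covariate, knockdown minus control, and Benjamini-Hochberg adjustment over all of them at 0.05. Fold changes on this scale understate those of low genes. The steps of the values gave whole fragments for 11844 of 11846 genes, to within 0.001 to 0.02 of a fragment, which were used for depth and for an added voom fit. The fit was tested on simulated data with the same spread in all 6 libraries, a setting that does not cover a library that stands apart. Positions, exon lengths and coding sequences came from GENCODE 29 (GRCh38). Members, lists and CCND1 were chosen with earlier results of these data known. Named genes were all members, all CCR4-NOT subunits, genes of each list past the adjusted p and the 2 with the largest test statistic, fixed cofactors and CCND1, and the 5 genes most like TOB2 and BTG2. Alternatives were 2 other pseudocounts, 2 other filters, a common median, no trend or robust fit, array weights, the replicate block, and each library left out.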

Additional observations from a re-analysis of the deposited data

How the results depend on the processing

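Genes past the adjusted p of 0.05 numbered 14, of which 1 was a member, TOB2. The count was 14 with no filter, with array weights and with a pseudocount of 0.01, 17 with a minimum mean of 1 FPKM, 18 with a pseudocount of 1 and 19 with voom on the recovered fragments, which was added after seeing the data. It was 0 with all libraries set to a common median and 0 without trend and robust fitting, and both settings left 0 members past the threshold. Leaving out each library in turn gave 0 to 255 genes and 0 to 2 members. The 255 genes and 2 members, TOB2 and BTG2, came without knockdown library 1, the 5 genes without knockdown library 3, and 0 genes without any other library. Over 16 settings the log2 fold change of TOB2 was 0.46 to 0.55 and past the threshold in 8, and that of BTG2 was 0.42 to 0.54 and past it in 1. CNOT6 ranged from −0.36 to −0.15, CNOT7 from −0.13 to −0.10 and CNOT1 from −0.21 to −0.01. BTG1 ranged from −0.23 to −0.01 and CNOT8 from −0.09 to −0.00. BTG3 was positive in 3 settings, up to 0.07 with array weights, and CNOT6L in 1, without knockdown library 1. The median of the 10 genes stayed negative, and of the other mRNA decay genes 0 passed in any setting. The causes of these differences were not tested.

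A fit with the replicate block left 1 gene and 0 members past the threshold. Deviations from the group mean of libraries with the same number were correlated at −0.34, −0.47 and −0.12 over 10813 genes. The knockdown mean includes knockdown library 1, which stood apart. These values therefore cannot decide whether the numbers pair the samples.

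Counting error was below the spread between replicates for TOB2, but above that between the control libraries for CNOT7. With 3 libraries a group, 1 of them standing apart, all of these values are limited. The table holds FPKM, so a change in the total mRNA per cell cannot be seen.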
